A study of Mus musculus with 6 samples.

Results

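The glucocorticoid receptor gene Nr3c1 and 9 genes that glucocorticoids are known to induce, Tsc22d3, Fkbp5, Zbtb16, Sgk1, Klf9, Dusp1, Errfi1, Mt1 and Mt2, were followed in bulk lung RNA of 6 mice. These 10 genes were taken by symbol from the 56262 genes of the count table, and each symbol matched 1 identifier. The R/R mice were homozygous for the Rbm47 substitutions K329R and K332R, made by CRISPR/Cas editing, and the WT mice were their wild-type littermates. The 3 R/R and 3 WT mice were 8 weeks old and untreated, so any glucocorticoid acting on these lungs was the animals' own. The R/R allele changes 2 lysines of an RNA-binding protein in every cell of the animal, so it does not single out a lung cell type. Tsc22d3 is the gene that the study follows in R/R lungs, and the question here was how its RNA level lay, lung by lung, beside that of other genes under the same hormone.

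Glucocorticoids, in mice chiefly corticosterone, enter the cell and bind the glucocorticoid receptor, which waits in the cytoplasm in a complex with Hsp90 chaperones and immunophilins. The bound receptor moves into the nucleus and attaches as a dimer to glucocorticoid response elements, an inverted repeat, where it raises transcription of its targets. Several targets carry the anti-inflammatory action of the hormone, among them Tsc22d3, which encodes the leucine zipper protein GILZ, and Dusp1, a phosphatase of MAP kinases. Others feed back on the pathway, as Fkbp5 does through the receptor complex. In the lung the hormone is best known for driving maturation before birth and for damping inflammation.

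Library totals ran from 16501092 to 18141067 counted read pairs, and 3 pairs corresponded to at most 0.182 CPM (counts scaled to a common library size, with TMM factors) in any library. Surfactant and other alveolar type 2 markers summed to between 19043 and 25490 CPM, so the libraries carried the RNA of lung. Rbm47 itself lay between 32.7 and 34.1 CPM in R/R and between 28.8 and 34.4 CPM in WT (log2 fold change 0.10 ± 0.08 SE, adjusted p = 0.66), a level that says nothing about the substitutions, which gene counts do not read. Whether a bulk level fell because fewer cells of a type were present or because each cell held less RNA cannot be told apart in such libraries.

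Of the 10 genes, 8 had at least 1 promoter in the RefSeq promoter table of GRCm38.p6, with 16 start sites between them. The windows searched ran from 250 bases before to 50 bases after each start, and both strands were read. The full response element, read as AGAACA, any 3 bases and TGTTCT, was found in 3 of the 32851 promoters of the table (0.00913%), and 1 of those 3 belongs to Sgk1. A single arm, AGAACA, was found in 19% of all promoters and in 4 of the 16 windows of the 8 genes, which belong to Sgk1 and Tsc22d3. The full element contains the arm 2 times, once on each strand. The windows of Fkbp5, Klf9, Dusp1, Errfi1, Mt1 and Mt2 held neither spelling, which says only that these letters are not in these windows.

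The Sgk1 window with the full element and the Tsc22d3 window with an arm are shown to 30 bases after the start, 5′ to 3′ on the gene's strand, with the element and the arms in capitals.
Sgk1, window 5 of 6, chr10:21993640-21993919, strand +: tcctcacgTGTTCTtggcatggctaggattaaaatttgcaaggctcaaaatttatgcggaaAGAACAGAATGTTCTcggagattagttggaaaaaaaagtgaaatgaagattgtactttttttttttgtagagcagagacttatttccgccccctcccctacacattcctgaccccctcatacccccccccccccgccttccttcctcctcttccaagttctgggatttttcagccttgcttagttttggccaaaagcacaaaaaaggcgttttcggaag
Tsc22d3, window 3 of 3, chrX:140600493-140600772, strand -: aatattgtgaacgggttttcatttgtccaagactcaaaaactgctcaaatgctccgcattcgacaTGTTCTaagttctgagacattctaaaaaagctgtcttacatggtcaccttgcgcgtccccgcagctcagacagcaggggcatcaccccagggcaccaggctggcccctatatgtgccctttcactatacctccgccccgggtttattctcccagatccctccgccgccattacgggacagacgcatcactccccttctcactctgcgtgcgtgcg

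Elements of other pathways were read in the same windows. The cAMP response element TGACGTCA, a palindrome bound by CREB family factors, was found in 1.79% of all promoters and in 1 window each of Dusp1 and Errfi1; this motif was added after the promoters had been read. The core of the metal response element, TGCNCNC, was found at least once in 51% of all promoters, at least 3 times in 7.1% and at least 6 times in 0.225%. The cuts of 3 and 6 were added after the promoters had been read and equal the counts in Mt1 and Mt2. Of the 8 genes, 7 had a window with at least 1 core, Klf9 being without. Counted by window, as the shares of all promoters are, 8 of the 16 windows held a core. The window of Mt1 held 3 cores, as did window 6 of Sgk1, and that of Mt2 held 6. Windows of Dusp1, Errfi1, Mt1 and Mt2 follow with the elements in capitals. These are the cAMP response element in Dusp1 and Errfi1 and the metal response element cores in Mt1, Mt2 and, close to the start, Dusp1.
Dusp1, only window, chr17:26508443-26508722, strand -: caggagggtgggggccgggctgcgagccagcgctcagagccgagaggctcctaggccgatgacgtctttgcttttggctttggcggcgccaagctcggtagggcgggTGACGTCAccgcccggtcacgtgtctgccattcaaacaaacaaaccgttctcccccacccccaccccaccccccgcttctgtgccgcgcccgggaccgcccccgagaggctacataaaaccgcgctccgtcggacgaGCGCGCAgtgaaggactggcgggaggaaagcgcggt
Errfi1, window 2 of 2, chr4:150854820-150855099, strand +: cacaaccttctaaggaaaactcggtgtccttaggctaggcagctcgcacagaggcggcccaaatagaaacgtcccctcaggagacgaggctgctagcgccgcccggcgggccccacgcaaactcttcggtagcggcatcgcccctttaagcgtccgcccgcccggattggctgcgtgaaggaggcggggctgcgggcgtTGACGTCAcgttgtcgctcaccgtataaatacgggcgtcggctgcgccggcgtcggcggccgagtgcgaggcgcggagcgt
Mt1, only window, chr8:94178839-94179118, strand +: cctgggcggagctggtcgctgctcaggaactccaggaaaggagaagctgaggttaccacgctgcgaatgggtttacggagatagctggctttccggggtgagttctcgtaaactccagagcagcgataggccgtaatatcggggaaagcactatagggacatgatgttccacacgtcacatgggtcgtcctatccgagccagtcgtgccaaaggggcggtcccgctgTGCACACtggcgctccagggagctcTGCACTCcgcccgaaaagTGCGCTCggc
Mt2, only window, chr8:94172368-94172647, strand +: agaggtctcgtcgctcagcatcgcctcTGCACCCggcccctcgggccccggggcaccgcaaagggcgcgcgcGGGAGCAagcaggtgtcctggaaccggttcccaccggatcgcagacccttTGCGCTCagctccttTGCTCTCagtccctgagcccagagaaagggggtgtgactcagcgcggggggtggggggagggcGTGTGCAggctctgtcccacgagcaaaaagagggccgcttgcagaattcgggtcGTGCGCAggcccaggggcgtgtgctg

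Levels were compared between genes per kilobase of exon length. Dusp1 stood highest, with a median of 61.5 CPM per kilobase over the 6 libraries and a range from 34.9 to 82.0. Errfi1, Klf9, Sgk1, Tsc22d3 and Nr3c1 followed with medians between 30.1 and 40.3 CPM per kilobase, and the ranges of neighbours in this order overlapped. Below them, every library had less Mt1 per kilobase than any library had Nr3c1. The exon length used for Mt1, 1246 bases, is its whole span on the chromosome (94179082 to 94180327). A shorter transcript would stand higher per kilobase, so the place of Mt1 in this order depends on that length. Mt1 lay between 14.96 and 22.1 CPM per kilobase, Zbtb16 between 2.69 and 12.7, and Fkbp5 between 1.24 and 3.07. The ranges of Zbtb16 and Fkbp5 overlapped slightly, although Zbtb16 was above Fkbp5 within each of the 6 libraries.

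**Figure D1:**
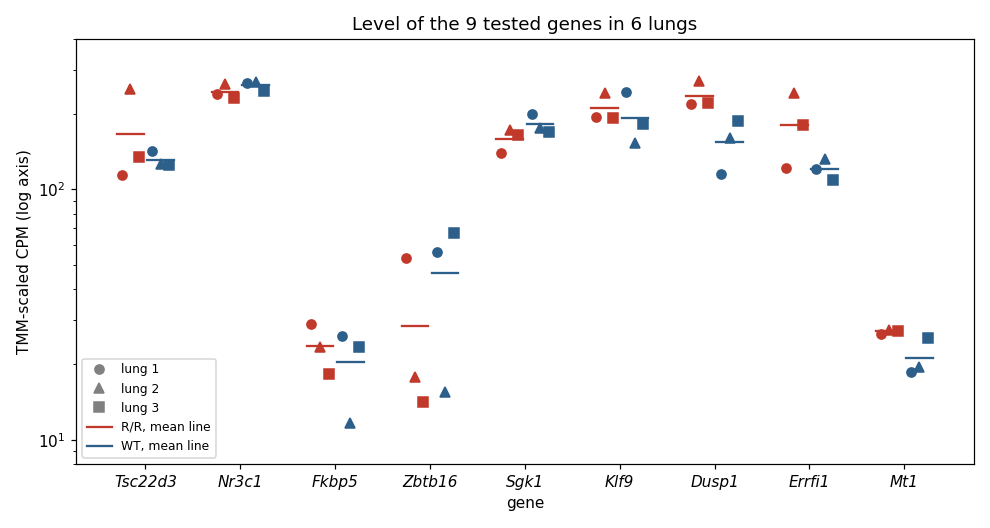
TMM-scaled CPM on a log axis of the 9 genes that could be tested, in 3 R/R lungs (red) and 3 WT lungs (blue); the marker shape gives the lung's number within its group and the horizontal line the group mean. R/R 2 stands above the other 5 lungs for Tsc22d3 and Errfi1, Dusp1 and Mt1 are above every WT lung in all 3 R/R lungs, and Zbtb16 is spread from 14.2 to 67.2 CPM with low and high lungs in both groups.

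Of the 10 genes, 9 passed the filter on low counts, and edgeR called 0 of them at an adjusted p under 0.05, beside 1.75% of all 17120 tested genes. DESeq2 and limma-voom also called 0. At an unadjusted p under 0.05, 3 were higher in R/R (Dusp1, Errfi1 and Mt1), beside 6.54% of all genes, and 1 was lower (Sgk1), beside 7.68%. The 3 R/R values lay above the 3 WT values for Dusp1 and Mt1, which was so for 9.17% of all genes, and lay below them for 0 members, beside 9.5% of all genes. The median log2 fold change of the 9 genes was 0.22, against 0.0045 over all tested genes. The count of members called depended on single lungs: without R/R 1 it was 1 (Errfi1), beside 1.03% of all genes in that fit, and without WT 3 it was 2 (Dusp1 and Mt1), beside 3.56%.

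For Tsc22d3 the difference between the genotypes was smaller than the spread among the R/R lungs. Its level was 114, 251 and 135 CPM in R/R 1, 2 and 3 and 143, 127 and 125 CPM in WT 1, 2 and 3. One R/R lung, R/R 2, was high, the other two lay on either side of the lowest WT value, and the lowest of the 6 values belonged to R/R 1. The mean was 167 ± 73.8 CPM in R/R and 132 ± 9.56 CPM in WT (SD, n = 3 each). This gave a log2 fold change of 0.34 ± 0.22 (SE, adjusted p = 0.53), and the exact two-sided permutation test of log2 CPM gave p = 0.8, where 3 against 3 cannot go below 0.1. Without R/R 2 the fold change turned to -0.079 (adjusted p = 0.81). The counts sum the transcripts of this gene over its start sites, so forms of GILZ that differ in their first exon are not separated. The gene lies on chromosome X (mm10, 140539528 to 140600659, strand -).

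Set lung by lung against the other 7 tested induced genes, Tsc22d3 stood highest in R/R 2 and lowest in R/R 1. In R/R 2 its log2 level was 0.81 above its mean over the 6 libraries, which was more than any of the 7, whose median there was 0.21. Of the 7, 6 were also above their own means there. In R/R 1 it was 0.33 below its mean, lower than each of the 7, whose median was 0.15. The difference between Tsc22d3 and the median of the 7 was thus -0.48 in R/R 1, 0.60 in R/R 2 and -0.054 in R/R 3. In WT 1, 2 and 3 the same difference was -0.25, 0.11 and -0.19. The highest and the lowest difference were therefore both within R/R, and the 3 WT lungs lay between them. The mean of Tsc22d3 includes the high value of R/R 2, and every other lung lay below it, from -0.010 in WT 1 to -0.33 in R/R 1. The low place of R/R 1 is thus in part set by R/R 2. Mt2, whose few counts are described below, was left out of this median after the values were seen. With it as an eighth gene the difference was 0.00043 in WT 1, and -0.51 and 0.63 in R/R 1 and R/R 2.

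R/R 2 was not high for the whole group of induced genes. Beside Tsc22d3, Errfi1 was raised there by 0.74 over its mean, Dusp1 by 0.52, Klf9 by 0.29, Mt1 by 0.21 and Fkbp5 by 0.15 on the log2 scale. Sgk1 was at 0.02 and Zbtb16 at -0.77. Among the 9 tested genes, 4 had their highest value in R/R 2 (Tsc22d3, Dusp1, Errfi1 and Mt1), beside 18.3% of all tested genes. Of the 32 other glucocorticoid-induced genes tested, 8 were highest in R/R 2, and 9 were highest in WT 3. The median deviation of those 32 genes in R/R 2 was -0.00022, close to that of all tested genes (0.0029).

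**Figure D2:**
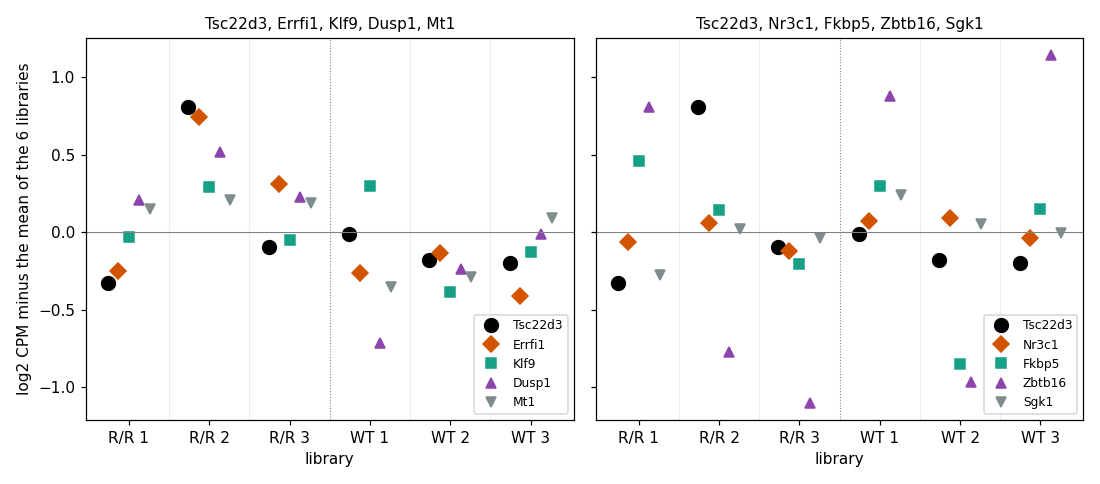
Log2 CPM minus the mean of the 6 libraries, in each library, for Tsc22d3 with Errfi1, Klf9, Dusp1 and Mt1 (left) and for Tsc22d3 with Nr3c1, Fkbp5, Zbtb16 and Sgk1 (right). In R/R 2, Tsc22d3 (0.81) and Errfi1 (0.74) lie together while Zbtb16 is at -0.77 and Nr3c1 at 0.06.

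The likeness of a gene to Tsc22d3 was taken as the root mean square difference of their log2 deviations over the 6 libraries, a description with no test. Among the 14190 tested genes whose log2 CPM averaged 1 or more, Errfi1 ranked 28th (0.22) and Klf9 361st (0.29). Sgk1 ranked 3909th, Mt1 6315th, Dusp1 8813th, Fkbp5 13139th and Zbtb16 14176th. The receptor gene itself ranked 2978th. By this measure Zbtb16 was thus among the 15 genes least like Tsc22d3. The measure counts the size of the deviations as well as their direction. A gene that varied widely can therefore rank low although it moved the same way, and a steady gene such as Nr3c1 can rank higher. The 6 most alike were Ppm1e, Gm13648, Gjb2, Gm2058, Gpx2 and Cngb1, at 0.15 to 0.18. All 6 were low, since 5 stayed at or under 5.0 CPM in every library and Gpx2, a glutathione peroxidase, reached 15.4 CPM. Each had its highest value in R/R 2, which follows from choosing them by likeness to Tsc22d3. There Gjb2, the gap junction protein connexin 26, was at 4.2 CPM against 2.1 to 2.9 CPM in the other 5 lungs. Among the induced genes of the longer list, Nfkbia ranked 29th, Ddit4 64th and Cebpd 102nd, while Per1, also highest in R/R 2, ranked 12080th (these 4 were picked out after their ranks were seen).

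The receptor gene was the steadiest of the group. Nr3c1 was at 242, 264 and 232 CPM in R/R and at 266, 269 and 247 CPM in WT. Its range over the 6 libraries was 0.21 on the log2 scale, where the median over all tested genes was 0.40, and the groups overlapped. R/R differed from WT by -0.084 ± 0.065 on the log2 scale (SE, adjusted p = 0.63). Its targets ranged more widely, from 0.52 for Sgk1 to 2.24 for Zbtb16, and the range of Tsc22d3 (1.13) was larger than that of 87.3% of tested genes.

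Dusp1 came closest to a call. It was at 219, 272 and 221 CPM in R/R and at 116, 161 and 188 CPM in WT, so the groups did not overlap. The log2 fold change was 0.61 ± 0.14 (SE, adjusted p = 0.057), and the exact two-sided permutation p was 0.1, the smallest that 3 against 3 allows. Unlike Tsc22d3, Dusp1 kept the direction of its difference when any single lung was left out, with log2 fold changes from 0.44 without WT 1 to 0.78 without WT 3 (adjusted p = 0.0067). Dusp1 encodes a nuclear phosphatase that inactivates p38 and JNK, and it is switched on within minutes by stress and growth signals as well as by glucocorticoids. Only 11 of its 3311 exon bases are shared with a gene on the other strand, Ergic1.

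Errfi1, which encodes the EGF receptor inhibitor MIG6, was at 122, 243 and 181 CPM in R/R and at 121, 132 and 109 CPM in WT. R/R 2 and R/R 3 were above every WT lung, whereas R/R 1 was within the WT range. The log2 fold change was 0.59 ± 0.18 (SE, adjusted p = 0.15), and the exact permutation p was 0.2. It fell to 0.32 without R/R 2 (adjusted p = 0.42) and rose to 0.81 without R/R 1 (adjusted p = 0.0095).

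Mt1, a metallothionein that binds zinc and copper and responds to both metals and glucocorticoids, was at 26.5, 27.6 and 27.2 CPM in R/R and at 18.6, 19.5 and 25.4 CPM in WT. The 3 R/R lungs were nearly equal and lay above WT 3 by a small margin and above the other two WT lungs by a larger one. The log2 fold change was 0.35 ± 0.11 (SE, adjusted p = 0.16), with an exact permutation p of 0.1, and it was 0.50 without WT 3 (adjusted p = 0.013). The other genes of the metal response gave no call: of 6 listed, 4 were tested, edgeR, DESeq2 and limma-voom called 0 of them, and 0 had an unadjusted p under 0.05. The metal sensor Mtf1 was at 0.11 (adjusted p = 0.65) and the zinc importer Slc39a10 at -0.13 (adjusted p = 0.50) on the log2 fold change scale.

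Mt2 was not tested between the groups. It had 6, 2 and 2 counted pairs in R/R and 1, 3 and 1 in WT, at most 0.333 CPM, and did not pass the filter. Of its 588 exon bases, 432 (73.5%) also lie in an exon of Gm45774, an unspliced gene on the opposite strand, which itself received between 0 and 2 pairs per library. Pairs were counted without strand and, by the counting command, a pair that touches 2 genes to the same extent is assigned to neither. What was left to Mt2 alone was the end of its last exon. The value was therefore not taken as a measure of Mt2 RNA, and it was not compared with that of Mt1.

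**Figure D3:**
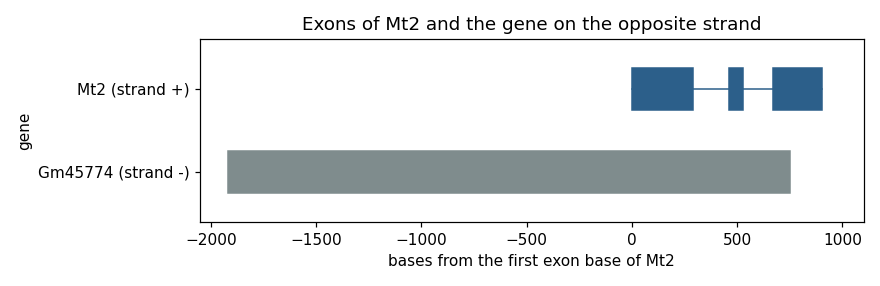
Exons of Mt2 (blue, 3 boxes, strand +) and of Gm45774 (grey, 1 box, strand -), drawn to scale in bases from the first exon base of Mt2. The grey box covers the first and second Mt2 exons whole and 77 of the 233 bases of the last.

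Zbtb16, the transcription factor PLZF, varied most of the tested members, and its difference between the genotypes was not called. It was at 53.4, 17.8 and 14.2 CPM in R/R and at 56.0, 15.6 and 67.2 CPM in WT. R/R 1, WT 1 and WT 3 were high, and R/R 2, R/R 3 and WT 2 were low, so each group held both kinds of lung. Between the groups the log2 fold change was -0.69 ± 0.50 (SE, adjusted p = 0.60, exact permutation p = 0.4). It ran from -1.53 without R/R 1 to -0.32 without WT 3, and neither fit called it. The range of Zbtb16 (2.24 on the log2 scale) was larger than that of 98.3% of tested genes.

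Fkbp5, the immunophilin that lowers hormone binding by the receptor and is among the most used readouts of glucocorticoid action, was at 29.0, 23.4 and 18.3 CPM in R/R and at 26.0, 11.7 and 23.5 CPM in WT. The same 3 lungs, R/R 1, WT 1 and WT 3, held its highest values, although R/R 2 was close behind WT 3. WT 2 was lowest. Its log2 fold change was 0.22 ± 0.24 (SE, adjusted p = 0.76), and it turned to -0.069 without WT 2.

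Neutrophil markers followed a similar order of lungs. The 6 markers summed to 93.5, 64.4 and 63.9 CPM in R/R and to 188, 66.5 and 179 CPM in WT, with WT 1, WT 3 and R/R 1 highest, as for Zbtb16. Of the 6, 5 were tested, and all 5 were lower in R/R at an unadjusted p under 0.05 (7.68% of all genes). With all lungs edgeR called 0 of them (lowest adjusted p = 0.11), and without WT 2 it called 4, beside 0.632% of all genes. DESeq2 called 1 and limma-voom 0. Ly6g, a defining marker, was at or under 0.4 CPM in every lung. The part of these cells in the levels of Zbtb16 and Fkbp5 was not tested.

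**Figure D4:**
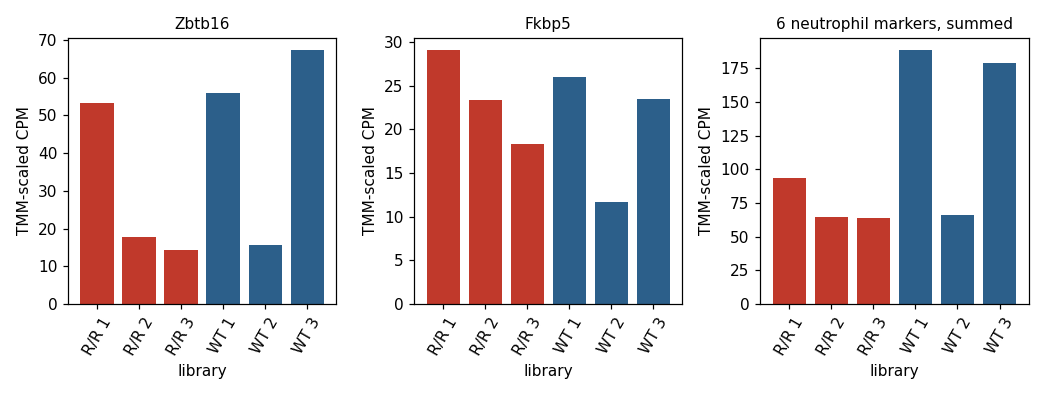
TMM-scaled CPM in each library of Zbtb16, Fkbp5 and the sum of 6 neutrophil markers, R/R in red and WT in blue. Zbtb16 is at 53.4 CPM or above in R/R 1, WT 1 and WT 3 and at 17.8 CPM or below in the other 3, the marker sum is highest in the same 3 lungs, and WT 2 is lowest for Fkbp5.

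Sgk1, a kinase that regulates sodium channels and other transporters, was at 140.2, 172 and 165 CPM in R/R and at 201, 176 and 169 CPM in WT. It leaned the other way from Dusp1, with a log2 fold change of -0.19 ± 0.09 (SE, adjusted p = 0.33), and R/R 2 lay above WT 3, so the groups overlapped. This is the gene whose promoter window held the full response element shown above. Klf9, a zinc finger repressor that is both a glucocorticoid target and a clock output, was at 195, 244 and 193 CPM in R/R and at 245, 153 and 183 CPM in WT. Its highest values were in R/R 2 and WT 1 and its lowest in WT 2. The log2 fold change was 0.12 ± 0.14 (SE, adjusted p = 0.77), and it turned to -0.022 without WT 2.

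A longer list of 32 other glucocorticoid-induced genes was tested whole. Of these, 2 were called, both higher in R/R, where 0.648% of all genes were called higher. The median log2 fold change of the list was 0.02. At an unadjusted p under 0.05, 9 were higher (6.54% of all genes) and 1, Rgs2, was lower (7.68%). Rgs2 was called lower by edgeR without R/R 1 (-0.81, adjusted p = 0.0018) and with the replicate block (-0.56, adjusted p = 0.043). DESeq2 called Fmo2 (0.34, adjusted p = 0.021) and Zfp36 (0.40, adjusted p = 0.011) higher. These genes are given after their values were seen. Cebpd, a C/EBP transcription factor of the acute phase, was at 70.9, 133 and 94.2 CPM in R/R and at 60.1, 57.6 and 59.9 CPM in WT (log2 fold change 0.75 ± 0.17 SE, adjusted p = 0.049). All 3 R/R lungs were above all 3 WT lungs, with R/R 2 highest, as for Tsc22d3. Its relative Cebpb was at 112, 131 and 128 CPM in R/R and at 104, 94.3 and 99.9 CPM in WT (0.32 ± 0.07 SE, adjusted p = 0.049). Both calls were marginal: limma-voom called neither, DESeq2 called Cebpb but not Cebpd, and neither was called when R/R 2, R/R 3, WT 1 or WT 2 was left out. Cebpb was also not called without WT 3, and the fold change of Cebpd was 0.48 without R/R 2. A gene on the opposite strand covers 15% of the exon bases of Cebpd (Spidr) and 20.7% of those of Cebpb (Tmem189), where pairs may have been assigned to neither gene.

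Per1, which is both a clock gene and a direct target of the receptor, showed the largest fold change of the longer list without a call. It was at 48.7, 149 and 115 CPM in R/R and at 81.4, 51.8 and 37.6 CPM in WT, high in R/R 2 and R/R 3 and low in R/R 1. The log2 fold change was 0.87 ± 0.34 (SE, adjusted p = 0.26). It fell to 0.52 without R/R 2 (adjusted p = 0.64) and rose to 1.21 with a call without R/R 1 (adjusted p = 0.033).

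Inflammatory genes that glucocorticoids repress lay on both sides of 0. Of 18 listed, 14 were tested, 7 with a positive and 7 with a negative log2 fold change (median 0.0047), and 1 was called, higher in R/R (0.648% of all genes). At an unadjusted p under 0.05, 3 were higher and 2 lower, beside 6.54% and 7.68% of all genes. That was Ptgs2, the inducible cyclooxygenase, at 14.4, 22.0 and 21.3 CPM in R/R and at 7.8, 10.3 and 12.8 CPM in WT (0.90 ± 0.19 SE, adjusted p = 0.039). It was higher in every R/R lung, and limma-voom did not call it (adjusted p = 0.052). It was also not called without R/R 2, R/R 3, WT 1 or WT 2. Sele, an endothelial adhesion molecule, was at 1.20 (adjusted p = 0.22) and the chemokine gene Cxcl1 at 1.11 (adjusted p = 0.47) on the log2 fold change scale, at no more than 5.5 and 0.8 CPM. Sele was at 0.60 without R/R 3 and was called without R/R 1 (1.58, adjusted p = 0.045), and Cxcl1, with 0 counts in WT 1, was at 0.56 without that lung. The 2 lower genes, given after their values were seen, were the gelatinase gene Mmp9 (-0.80, adjusted p = 0.18) and the chemokine gene Ccl5 (-0.47, adjusted p = 0.30). Mmp9 was called without WT 2 (-1.11, adjusted p = 0.0039).

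Immediate early genes, which respond within minutes to growth factors, stress and handling of tissue, are the other setting in which Dusp1, Errfi1 and Cebpd are known. All 11 listed were tested and had a positive log2 fold change, with a median of 0.47. At an unadjusted p under 0.05, 10 were higher, and for 8 the R/R values lay above the WT values, beside 6.54% and 9.17% of all genes. The 1 called gene, higher in R/R (0.648% of all genes), was Nr4a1, an orphan nuclear receptor. It was at 58.9, 90.5 and 74.2 CPM in R/R and at 41.4, 44.4 and 45.8 CPM in WT (0.76 ± 0.12 SE, adjusted p = 0.015). Fos was at 49.7, 35.8 and 32.4 CPM in R/R and at 9.6, 14.0 and 28.2 CPM in WT (1.19 ± 0.29 SE, adjusted p = 0.068). Egr1 was at 107, 62.4 and 92.8 CPM in R/R and at 23.5, 44.7 and 58.0 CPM in WT (1.06 ± 0.26 SE, adjusted p = 0.067). WT 1 was lowest for both, as it was for Dusp1 and Mt1. Leaving out WT 1 took the call from Nr4a1, and leaving out WT 3 raised the calls of the list from 1 to 6. Of all genes, 0.372% and 3.56% were called in those fits, against 1.75% with all lungs. The part of this group in the values of Dusp1 and Errfi1 was not tested.

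The circadian clock held more calls than any other list. Of 15 clock genes, all tested, 5 were called higher in R/R (Dbp, Tef, Nr1d2, Per3 and Cry2) and 2 lower (Npas2 and Arntl), beside 0.648% and 1.1% of all genes. Dbp, a PAR-domain transcription factor, was at 119, 135 and 132 CPM in R/R and at 66.8, 84.7 and 65.5 CPM in WT (0.83 ± 0.09 SE, adjusted p = 0.0019). The activator gene Npas2 was at 2.5, 2.8 and 2.6 CPM in R/R and at 5.5, 6.6 and 7.6 CPM in WT (-1.32 ± 0.19 SE, adjusted p = 0.0089). The other called genes were Tef at 0.47, Nr1d2 at 0.49, Per3 at 0.62, Cry2 at 0.29 and Arntl, which encodes BMAL1, at -0.82. Dbp, Tef, Nr1d2 and Npas2 were called whichever single lung was left out, and the calls of Arntl, Per3 and Cry2 were not. The calls of the list went from 7 to 4 without R/R 2 or without R/R 3. In those fits 0.434% and 0.671% of all genes were called, against 1.75% with all lungs. Corticosterone itself follows the day, Per1 and Klf9 belong to both systems, and the hour at which each lung was taken is not given in the sources used here, so hour and genotype cannot be told apart.

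**Figure D5:**
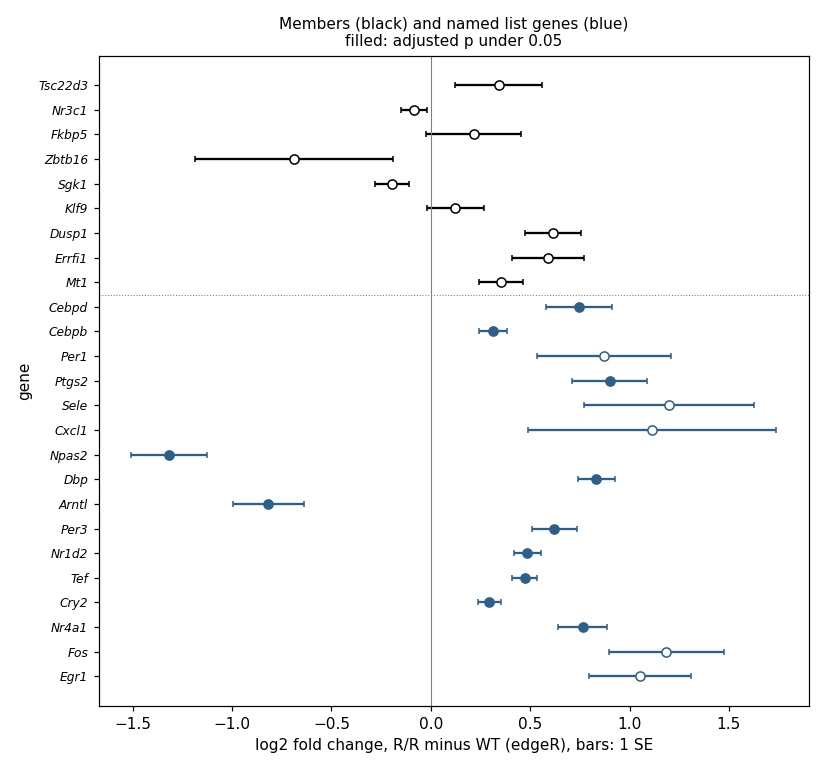
Log2 fold change (R/R minus WT, edgeR) with 1 SE for the 9 tested members (black) and for the named genes of 4 other lists (blue); filled points have an adjusted p under 0.05. No black point is filled, Dusp1 (0.61) and Errfi1 (0.59) lie highest among them, and the filled points belong to Cebpd, Cebpb, Ptgs2, Nr4a1 and 7 clock genes.

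The apparatus around the receptor gave no call with all 6 lungs. Of 21 genes for chaperones, coregulators, the mineralocorticoid receptor and the enzymes that interconvert active and inactive hormone, all tested, edgeR, DESeq2 and limma-voom called 0, and 3 were higher at an unadjusted p under 0.05, beside 6.54% of all genes. Without R/R 1, edgeR called 1, the co-chaperone gene Dnajb1 (0.45, adjusted p = 0.025), beside 1.03% of all genes called in that fit. The largest fold changes were those of Hsd11b2, which inactivates corticosterone (0.70 ± 0.44 SE, adjusted p = 0.53), and Nr3c2, the mineralocorticoid receptor (0.42 ± 0.14 SE, adjusted p = 0.18). Hsd11b2 rested on 1 lung, R/R 3, at 7.5 CPM against 1.5 to 3.2 CPM elsewhere, and its fold change turned to -0.081 without it. Nr3c2 was at 17.3, 24.5 and 20.2 CPM in R/R and at 12.8, 16.9 and 16.5 CPM in WT, with every R/R value above every WT value.

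The 3 other TSC22 genes are close relatives of Tsc22d3 and share its TSC box and leucine zipper. edgeR, DESeq2 and limma-voom called 0 of them, and 1, Tsc22d4, had an unadjusted p under 0.05. Tsc22d4 was at 74.4, 71.9 and 74.6 CPM in R/R and at 86.7, 79.9 and 82.5 CPM in WT (-0.17 ± 0.06 SE, adjusted p = 0.18), below WT in all 3 R/R lungs. The R/R values lay below the WT values for 2 of the 3 genes, Tsc22d4 and Tsc22d1, beside 9.5% of all genes. The median log2 fold change of the 3 was -0.12. Tsc22d2, at 0.16 on the log2 fold change scale (adjusted p = 0.45), was like Tsc22d3 highest in R/R 2, at 66.1 CPM against 51.1 to 63.6 CPM in the other lungs. Tsc22d3 is also a target of FoxO factors, and of 13 FoxO genes and targets, all tested, those tools called 0, with 1 lower at an unadjusted p under 0.05. Klf2, an endothelial transcription factor, was at 177, 405 and 336 CPM in R/R and at 230, 282 and 193 CPM in WT (0.38 ± 0.23 SE, adjusted p = 0.51), again with R/R 2 highest and R/R 1 lowest. It was at 0.13 without R/R 2 and was called without R/R 1 (0.65, adjusted p = 0.045). Bcl6 was at -0.26 (adjusted p = 0.48).

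Markers of B cells held most of the calls among the other cell types of the lung. The 6 B cell markers summed to between 92.0 and 122 CPM in R/R and between 165 and 205 CPM in WT, with 4 called lower, beside 1.1% of all genes. With single lungs left out, between 2 and 6 of the 6 markers were called, 2 without R/R 2, R/R 3, WT 1 or WT 2 and 6 without WT 3. Of all genes, 0.372% to 0.671% were called in the former fits and 3.56% in the last. The 6 alveolar macrophage markers summed to between 699 and 806 CPM in R/R and between 431 and 604 CPM in WT, with 1 (Chil3) called higher, beside 0.648% of all genes. With single lungs left out, Chil3 was called only without WT 3. The 6 erythroid markers summed to between 1175 and 2219 CPM in R/R and between 2425 and 3220 CPM in WT, with 1 (Hba-a1) called lower, again beside 1.1%. DESeq2 did not call Hba-a1, and with single lungs left out it was called only without R/R 3 or WT 3. Those of T cells summed to between 40.1 and 48.7 CPM in R/R and between 53.9 and 74.7 CPM in WT. Of the 8 T cell markers, edgeR and limma-voom called 0 and DESeq2 called 2, and 4 were lower at an unadjusted p under 0.05, beside 7.68% of all genes. Without WT 2, edgeR called 2 T cell markers lower (Cd8a and Lck), beside 0.632% of all genes called in that fit. The part of these cell types in the levels of the glucocorticoid targets was not tested. For the other marker lists edgeR called 1 (Aqp5) higher for alveolar type 1 cells and 0 for adipose tissue, cardiac and smooth muscle, fibroblasts, endothelium, ciliated and club cells and alveolar type 2 cells. Aqp5, too, was called only without WT 3 when single lungs were left out. DESeq2 called 1 marker each of fibroblasts, smooth muscle and alveolar type 2 cells and limma-voom 1 of fibroblasts. Without WT 3, where 3.56% of all genes were called, edgeR called 4 of cardiac muscle, all lower in R/R. In that fit Sftpa1 (alveolar type 2 cells), Ccdc153 and Scgb1a1 (club and ciliated cells) and Cidec (adipose tissue) were called higher. Of the fibroblast markers, Dcn was called higher there and Npnt lower.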

How the data were processed

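Paired reads of 150 bases from 3 R/R and 3 WT lungs were aligned by the authors with HISAT2 2.1.0 (mm10, GRCm38). What they deposited are raw counts per gene and library, made by featureCounts 2.0.1 from GENCODE M25 without strand. One deposited column was recorded here as an estimated count because a comment line misled an automatic check; it too holds whole numbers, and none was rounded. The submitters' notes name DESeq2 and the supplement edgeR.

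Symbols were matched to 55141 of 56262 identifiers, and groups came from the sample titles. Genes passing filterByExpr (minimum count 10, minimum total 15) were scaled by TMM and tested by quasi-likelihood in edgeR 4.0.16 (R 4.3.3), with Benjamini-Hochberg adjustment over 17120 genes and a threshold of 0.05. The SE was taken from the F statistic. For single genes an exact two-sided permutation test was run on log2 CPM with a prior count of 0.5. The study states that the animals are biological replicates, and libraries of a group differed by more than sampling noise (chi-square per degree of freedom 5.64 to 9.02). The limit from 3 counts covers counting error only.

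The genes and lists were chosen with earlier results of these data known. Named were the 10 genes, Rbm47, in each list the called genes and the 2 with the largest fold change, and the 6 most like Tsc22d3; others are named as marked or as examples. Alternatives were DESeq2 1.42.0, limma-voom (limma 3.58.1), 2 other scalings, 2 other filters, a replicate block and leaving out each lung. The scripts were tested on simulated data.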

Additional observations from a re-analysis of the deposited data

How the results depend on the processing

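Of the 9 tested members, 6 kept the direction of their difference under every alternative. The 3 others turned when 1 lung was left out: over the 6 lungs left out in turn, the log2 fold change ran from -0.079 to 0.55 for Tsc22d3, from -0.069 to 0.43 for Fkbp5 and from -0.022 to 0.33 for Klf9, and from -0.081 to 1.01 for Hsd11b2 of the receptor list. Members called ran from 0 to 2, other induced genes called from 0 to 4, and all genes called from 65 to 621, against 0, 2 and 300 with all lungs. DESeq2 called 541 genes in all. With limma-voom, and with a filter of 1 CPM in 3 libraries, 0 other induced genes were called. Immediate early genes called were 1 with all lungs, and 2 with DESeq2, limma-voom, no TMM or upper-quartile factors. Of all genes, these settings called 3.5%, 1.47%, 1.71% and 1.72%.

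Without the filter on low counts, 31428 genes were fitted, 1109 were called (3.53%), and the calls included 5 members (Dusp1, Errfi1, Mt1, Tsc22d3 and Zbtb16), 9 other induced genes, 8 immediate early genes and 4 repressed genes. Tsc22d3 was then at 0.35 (adjusted p = 5.1e-05), although R/R 2 alone was high. In that fit the prior degrees of freedom were infinite (7.66 with the filter), so each gene took the common trend for its spread and its own replicates did not enter it.

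Same-numbered lungs did not deviate together over the tested genes (correlations from -0.015 to -0.0036), and none was best matched by its own number. Other-numbered lungs gave correlations from -0.022 to 0.032. A pairing that touches few genes would not show in these values, so whether the numbers pair the lungs is not known. With the replicate number as a block, 446 genes were called (2.61%), among them 2 members (Dusp1 and Errfi1) and 5 immediate early genes, and Tsc22d3 was at 0.26 (adjusted p = 0.57).

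Leaving Mt2 out of the induced genes set against Tsc22d3, chosen after seeing the data, moved the difference in WT 1 from 0.00043 to -0.25 and changed that of no other lung by more than the spread of its group.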
